A study of Mus musculus with 6 samples.

Results

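The kelch-repeat genes of the *Klhl* and *Kbtbd* families, the ankyrin-repeat *Asb* genes and the SPRY-domain *Spsb* genes encode the substrate adaptors of a large group of cullin ubiquitin ligases. Their members were taken by symbol, as one of these 4 stems followed by a number only, with at least 60 read counts summed over the 6 libraries. Of the 24532 genes in the table, 68 carried such a symbol and 63 reached the minimum, namely 33 of 37 *Klhl*, 9 of 9 *Kbtbd*, 17 of 18 *Asb* and 4 of 4 *Spsb* genes. Just inside it were *Asb17* and *Klhl10* with 60 counts each and *Klhl3* with 64. Outside it, *Klhl32* had 7 counts, and *Klhl14*, *Klhl35*, *Klhl1* and *Asb9* had none in any library.

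A cullin ligase joins a scaffold, a RING protein that brings the loaded E2 enzyme, and an adaptor that binds the protein to be ubiquitinated. BTB-kelch proteins bind Cul3 through the BTB domain and hold the substrate with the kelch propeller. ASB and SPSB proteins carry a SOCS box, which docks on elongin B and elongin C and through them on Cul5. Striated muscle is known for expressing several adaptors at high levels, and mutations of *KLHL40*, *KLHL41* and *KBTBD13* cause nemaline myopathy in people.

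The data were poly(A) RNA-seq of gastrocnemius (GAS) muscle from male mice about 20 weeks old, whose strain was given as C57BL/6, with 3 libraries a group. The WT group was *Sirt6* flox/flox without Cre, and the *Sirt6* KO group was *Myl1-Cre*; *Sirt6* flox/flox, so both groups carried the floxed alleles and only the second carried Cre. *Myl1-Cre* expresses Cre from the myosin light chain 1 gene, chiefly in fast fibers that have left the cell cycle and from before birth, and other cells of the muscle are not its target. The comparison is meant to address which adaptor transcripts differ when muscle fibers lose *Sirt6*.

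The libraries held 44845763 to 63016899 counts, and 1 count was worth 0.0165 to 0.0212 CPM. CPM values are counts scaled to library size with TMM factors (trimmed mean of M values), ± marks the SD over the 3 libraries of a group or, after a log2 fold change, its SE, and fold changes are the libraries labelled *Sirt6* KO over WT from the quasi-likelihood test of edgeR, with p adjusted after Benjamini and Hochberg over the 13801 genes tested. *Sirt6* itself went against its label. It was at 2.77, 2.23 and 2.88 CPM in the WT libraries and 7.81, 7.44 and 6.68 CPM in those labelled *Sirt6* KO, so every library labelled *Sirt6* KO was above every WT library (log2 fold change 1.48 ± 0.17, adjusted p = 0.0113). The study reported loss of Sirt6 protein in muscle of these mice by Western blot, but does not tie it to these libraries. It also listed *Ppargc1a*, *Nr4a3* and *Nr4a1* among the genes most reduced in its RNA-seq of KO muscle, and followed them by qPCR. A count per gene does not show which exons of *Sirt6* its reads cover. Whether the labels are right was not tested. The direction of each difference is given as the labels have it, and each rise or fall holds only if they are right. The marker sums for slow fibers, in deposited TPM, were 18321, 18921 and 2354 in the WT libraries and 2457, 9630 and 3026 in those labelled *Sirt6* KO, so WT 3 stood apart from the other WT libraries. None of the 12 slow or 11 fast fiber markers passed the threshold by edgeR, with 0 slow and 1 fast marker at an unadjusted p under 0.05. DESeq2 passed 0 slow and 4 fast markers. Without WT 3, edgeR passed 2 slow markers, both lower, and 8 fast markers as higher and 1 as lower. With all libraries, the log2 fold change was negative for all 12 slow markers (median -1.19) and positive for 9 of the 11 fast markers. The fast fiber sum was 211988 to 271512 TPM in WT and 270382 to 292404 TPM in the other group, which is the high level of fast-fiber genes that GAS is known for. In bulk tissue, fewer cells of a type and less RNA per cell cannot be told apart.

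Members of the muscle lists held most places at the top of the order of levels, above a long tail of low genes (the plot of deposited TPM by library). On the TPM scale, which corrects for transcript length, 10 members averaged 100 or more over the 6 libraries, 22 lay from 10 to 100, 22 from 1 to 10 and 9 under 1. *Asb2* was the most abundant at 720.1, 632 and 808 TPM in the WT libraries and 975, 773 and 1002 TPM in those labelled *Sirt6* KO. Within each library it exceeded every other member. *Klhl41*, which stabilizes nebulin, came next at 589.7, 565 and 508 TPM in the WT libraries and 521, 501 and 435 TPM in those labelled *Sirt6* KO. *Asb5* followed at 521, 474 and 658 TPM in the WT libraries and 203, 399 and 346 TPM in those labelled *Sirt6* KO. The ranges of *Klhl41* and *Asb5* overlapped in the WT libraries. In the libraries labelled *Sirt6* KO they did not, and *Klhl41* was the higher. *Asb11*, a SOCS-box adaptor, was at 308, 312 and 284 TPM in the WT libraries and 189.5, 237 and 215 TPM in those labelled *Sirt6* KO. The next 6 by mean, *Klhl40* (164 TPM), *Asb14* (136 TPM), *Klhl21* (130.02 TPM), *Asb10* (123 TPM), *Klhl31* (117 TPM) and *Klhl38* (109.8 TPM), had overlapping ranges from each to the next. The first 3 members made up 47.8% of the summed member TPM in WT and 47.9% in the KO-labelled libraries, and the first 8 made up 69.8% and 69.7%.

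**Figure D1:**
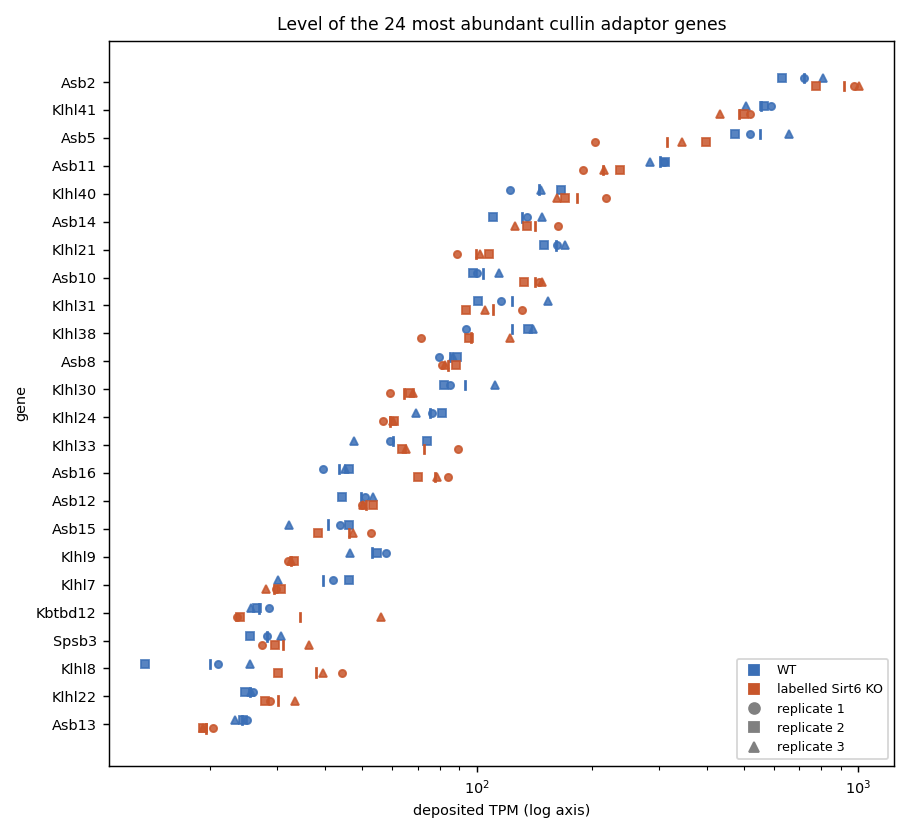
Deposited TPM (log axis) of the 24 most abundant adaptor genes in each library, ordered by mean. Blue marks are WT and orange marks are the libraries labelled Sirt6 KO, circles, squares and triangles are replicates 1, 2 and 3, and bars are group means. Asb2 is the highest of the members, and the marks of both groups overlap for most genes but are apart for Asb5, Asb11, Klhl21, Klhl9 and Asb16, among others.

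Of the 20 members that lists of known muscle adaptors hold (9 kelch and 11 ASB genes), 18 averaged 10 TPM or more. Over all 63 members, 32 did. The lists hold genes known in muscle and were chosen with earlier results known, so this count is no test. The summed TPM of all members was 3820 ± 145 for WT and 3585 ± 85.9 for the KO-labelled libraries. The *Klhl* sum was 1588 ± 26.9 against 1408 ± 62.7, and its 3 libraries in each group did not overlap. *Asb* genes made up 54.7% of the member TPM in WT and 57.6% in the other group. The first 4 members held the same ranks in both groups by mean TPM. *Klhl21* went from rank 5 in WT to rank 9, *Asb10* from 10 to 6 and *Asb16* from 17 to 12.

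Among the 250 bases before the transcript start, a MEF2 motif was found in members of the muscle lists and in no other member. Promoter sequence of RefSeq (GRCm38.p6, the build of the files, mm10) was matched for 55 of the 63 members in 77 windows. A match to the MEF2 motif, the site of a muscle transcription factor family, stood in 8 of the 55 members (14.5%) and in 3.42% of all 27025 genes with such windows. All 8 were among the 18 matched genes of the muscle lists, and none of the other 37 members held one. They were *Asb5*, *Asb12*, *Asb14*, *Asb16*, *Asb18*, *Kbtbd12*, *Klhl33* and *Klhl41*. The other motifs were searched for the CREB family, which the study followed, and for MyoD, on both strands. The full cyclic AMP response element (CRE), TGACGTCA, was found in 1 member, *Klhl12* (1.82% of members and 1.77% of all genes). Its half-site TGACG, which the full element contains, was found in 20 members (36.4%) and 19.8% of all genes, and in 5 of the 17 matched members that passed the threshold of the comparison. The MyoD-type E-box CAGCTG was found in 11 members (20.0%) and 14.7% of all genes. The 100 bases up to the start are shown 5′ to 3′ for 5 members with the MEF2 motif, because they are the most abundant of the 8 or rose in the comparison given next, and for *Klhl12*, the member with the full CRE. Capitals mark the motif.
Klhl41: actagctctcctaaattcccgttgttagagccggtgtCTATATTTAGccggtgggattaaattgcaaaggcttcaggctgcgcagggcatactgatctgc
Asb5: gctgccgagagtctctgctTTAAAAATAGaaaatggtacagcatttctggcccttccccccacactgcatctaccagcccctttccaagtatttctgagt
Asb14: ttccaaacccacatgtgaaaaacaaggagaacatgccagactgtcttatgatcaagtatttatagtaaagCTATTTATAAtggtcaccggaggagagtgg
Asb16: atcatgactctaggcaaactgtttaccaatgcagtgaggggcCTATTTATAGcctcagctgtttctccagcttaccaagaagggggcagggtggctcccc
Asb18: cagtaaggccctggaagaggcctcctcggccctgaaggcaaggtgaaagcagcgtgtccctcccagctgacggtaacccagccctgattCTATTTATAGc
Klhl12: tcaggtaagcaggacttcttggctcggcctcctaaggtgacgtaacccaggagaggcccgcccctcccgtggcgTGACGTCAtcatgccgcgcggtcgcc
These stretches lie at chr2:69670020-69670119 on the plus strand (*Klhl41*), chr8:54571339-54571438 on the plus strand (*Asb5*), chr14:26894514-26894613 on the plus strand (*Asb14*), chr11:102268651-102268750 on the plus strand (*Asb16*), chr1:90014667-90014766 on the minus strand (*Asb18*) and chr1:134455431-134455530 on the plus strand (*Klhl12*). Of these 6, *Asb16* and *Asb18* belong to genes that rose. The stretch of *Asb5* precedes a transcript start inside the gene. The window before the first base of that gene (chr8:54550081-54550330) held no MEF2 match.

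Of the 63 members, all of which passed the filter on low counts, 18 passed an adjusted p of 0.05 (28.6%), where 16.2% of all genes tested did. Higher in the libraries labelled *Sirt6* KO were 12 members (19.0%, against 7.85% of all genes), and 6 were lower (9.52%, against 8.39%). In all 18 the values of the groups did not overlap. Counted without a test, the groups did not overlap in 34 members (54.0%), 17 of them higher and 17 lower, against 40.0% of all genes (20.3% higher and 19.6% lower). An unadjusted p under 0.05 was reached by 27 members, where 35.3% of all genes reached it. The median log2 fold change was 0.04 over the members and -0.02 over all genes, and the median size without sign was 0.44 against 0.35. By family, 8 *Klhl* genes rose (24.2%) and 2 fell (6.06%), 3 *Kbtbd* genes fell (33.3%), 4 *Asb* genes rose (23.5%) and 1 *Spsb* gene fell (25%). No *Kbtbd* gene rose by edgeR, with 0 of 9 higher at an unadjusted p under 0.05 and 0 by DESeq2 and by limma. No *Asb* gene fell by edgeR, with 1 of 17 lower at an unadjusted p under 0.05 and 1 each by DESeq2 and limma on log2(FPKM + 1). The muscle lists held 4 of the 18 (3 higher, 1 lower), or 20% of their 20 members, where 16.2% of all genes passed. The 43 others held 14 (32.6%, 9 higher, 5 lower).

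**Figure D2:**
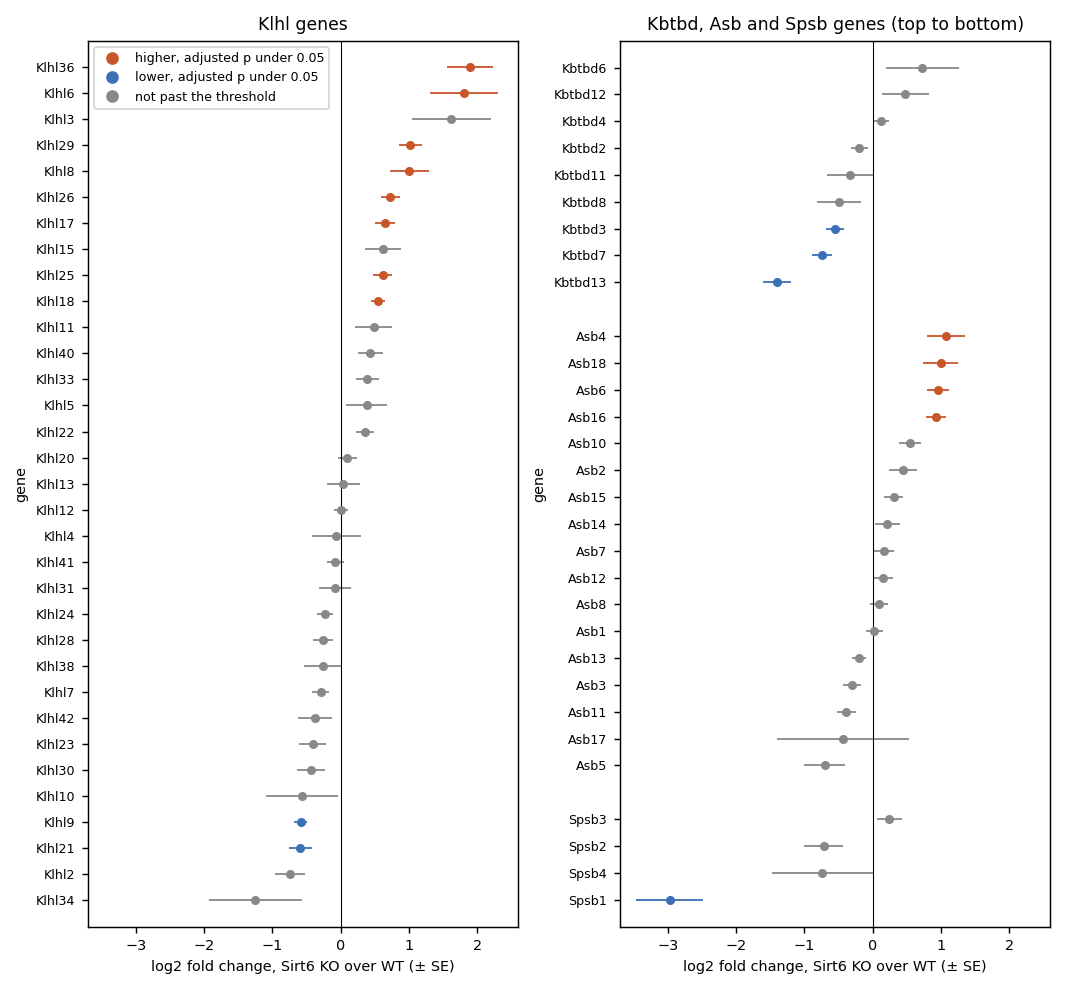
Log2 fold change (x axis, libraries labelled Sirt6 KO over WT) of the 63 members, with bars of ± SE. Klhl genes are on the left, and Kbtbd, Asb and Spsb genes from top to bottom on the right. Orange points are higher and blue points lower at an adjusted p under 0.05, from -2.97 for Spsb1 to 1.89 for Klhl36, and grey points did not pass.

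The member with the largest difference was *Spsb1* (NCBI gene 74646, chr4:149896283-149955006), a SOCS-box adaptor known to target inducible nitric oxide synthase for degradation. It was at 22.7, 72.7 and 25.5 CPM in the WT libraries and 4.77, 6.76 and 3.85 CPM in those labelled *Sirt6* KO. All 3 WT values were above the other 3, and WT 2 was far above the other WT libraries. The means were 40.3 ± 28.1 CPM for WT and 5.13 ± 1.49 CPM for the KO-labelled libraries, and *Spsb1* fell by 2.97 ± 0.49 on the log2 scale (adjusted p = 0.0155). Leaving out 1 library at a time gave log2 fold changes from -3.25 to -2.23, with -2.23 without WT 2. Of these 6 fits 4 passed, and those without the libraries labelled *Sirt6* KO 1 and 3 did not. The other *Spsb* genes did not pass. *Spsb2*, which shares the SPRY and SOCS-box design, had a log2 fold change of -0.72 ± 0.29 (adjusted p = 0.121) without overlap between the groups. The summed *Spsb* TPM was 61.5 ± 19.8 for WT and 36.7 ± 3.61 for the KO-labelled libraries.

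Among the muscle kelch adaptors, *Kbtbd13* (NCBI gene 74492, chr9:65388684-65391652), a Cul3 adaptor and nemaline myopathy gene, fell, while its partners in that disease did not pass. *Kbtbd13* was at 11.1, 12.2 and 11.7 CPM in the WT libraries and 3.42, 5.76 and 4.104 CPM in those labelled *Sirt6* KO. The WT values were close together, and all 3 were above the libraries labelled *Sirt6* KO (log2 fold change -1.40 ± 0.21, adjusted p = 0.0132). *Klhl40*, which stabilizes nebulin and leiomodin 3, was at 125, 181 and 187 CPM in the WT libraries and 256, 209 and 201 CPM in those labelled *Sirt6* KO. The groups did not overlap, but the difference did not pass (log2 fold change 0.43 ± 0.18, adjusted p = 0.139). *Klhl41* was at 623, 635 and 668 CPM in the WT libraries and 630.3, 638 and 557 CPM in those labelled *Sirt6* KO. These ranges overlapped (log2 fold change -0.08 ± 0.12, adjusted p = 0.69), and removing the trend of fold change with GC content turned the sign to 0.08. Of the proteins these adaptors are known to hold, chosen here for that role after their values were seen, *Neb* had a log2 fold change of -0.07 ± 0.19 (adjusted p = 0.828) and *Lmod3* of -0.50 ± 0.28 (adjusted p = 0.24).

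The other muscle kelch genes gave no call. *Klhl31*, known to bring filamin C to degradation, was at 301, 279.7 and 498 CPM in the WT libraries and 392, 294 and 332 CPM in those labelled *Sirt6* KO. The groups overlapped (log2 fold change -0.08 ± 0.24, adjusted p = 0.831), and the sign turned in 4 alternatives. *Klhl38*, whose transcript is known to rise in wasting muscle, was at 86.3, 133 and 161 CPM in the WT libraries and 75.1, 106 and 136 CPM in those labelled *Sirt6* KO with overlap (log2 fold change -0.26 ± 0.28, adjusted p = 0.535). *Klhl30* was at 107, 110.01 and 175 CPM in the WT libraries and 85.02, 101 and 104 CPM in those labelled *Sirt6* KO. Its groups did not overlap, yet it did not pass (log2 fold change -0.44 ± 0.21, adjusted p = 0.175). *Klhl33* was at 39.4, 52.5 and 39.4 CPM in the WT libraries and 68.1, 51.1 and 52.7 CPM in those labelled *Sirt6* KO with overlap (log2 fold change 0.39 ± 0.17, adjusted p = 0.14). *Kbtbd12*, a BTB-kelch gene, was at 24.3, 23.9 and 27.1 CPM in the WT libraries and 22.9, 24.5 and 57.6 CPM in those labelled *Sirt6* KO. The library labelled *Sirt6* KO 3 alone was high, and without it the log2 fold change was -0.08 in place of 0.48 ± 0.34 (adjusted p = 0.348). *Klhl34* varied widely within both groups, at 23.98, 31.6 and 6.49 CPM in the WT libraries and 3.896, 16.8 and 5.41 CPM in those labelled *Sirt6* KO. It was highest in WT 2, WT 1 and the library labelled *Sirt6* KO 2, the same 3 libraries with the highest slow fiber marker sums, and it did not pass (log2 fold change -1.25 ± 0.69, adjusted p = 0.234). The part of fiber makeup in the values of *Klhl34* was not tested.

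Of the kelch adaptors outside the muscle list, 4 fell. *Klhl9* (NCBI gene 242521, chr4:88718292-88722508) and *Klhl21* (NCBI gene 242785, chr4:152008891-152017677) are both known for acting on the mitotic kinase Aurora B. *Klhl9* was at 102, 102 and 101 CPM in the WT libraries and 64.4, 70.1 and 69.3 CPM in those labelled *Sirt6* KO. The libraries of each group lay close together and far from those of the other group (log2 fold change -0.58 ± 0.09, adjusted p = 0.015). *Klhl21*, the most abundant member that passed, was at 263, 258 and 344 CPM in the WT libraries and 164, 211 and 199.98 CPM in those labelled *Sirt6* KO without overlap (log2 fold change -0.59 ± 0.16, adjusted p = 0.0484). *Kbtbd7*, which with *Kbtbd6* brings the Rac activator TIAM1 to degradation, was at 11.6, 10.1 and 9.09 CPM in the WT libraries and 6.29, 5.61 and 6.55 CPM in those labelled *Sirt6* KO. All WT values were higher (log2 fold change -0.74 ± 0.15, adjusted p = 0.0223), while *Kbtbd6* had under 10 counts in WT 1 and WT 3 and a log2 fold change of 0.72 ± 0.53 (adjusted p = 0.363). *Kbtbd3* was at 7.82, 8.46 and 7.75 CPM in the WT libraries and 5.298, 5.53 and 5.63 CPM in those labelled *Sirt6* KO, again without overlap (log2 fold change -0.55 ± 0.13, adjusted p = 0.0343). *Klhl9* shares 661 exonic bases with *Gm26566* on the other strand, *Klhl21* 817 with *Gm9768* and *Spsb1* 103 with *Gm13070* (GENCODE M21). Among muscle-list genes, *Klhl38* shares 1446 such bases with *Gm15943*, *Klhl40* 540 with *Gm47108* and *Asb5* 75 with *Spcs3*. Whether counting used strand is not given in the sources used here, so reads of these stretches may not be told apart. *Klhl21* also has 562 bases that are 90.2% identical to *Gm14395*.

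The 8 kelch genes that rose were mostly of low or middle abundance. *Klhl36* (NCBI gene 234796, chr8:119862231-119876989) had the largest increase, at 0.341, 0.297 and 0.349 CPM in the WT libraries and 1.56, 1.19 and 0.944 CPM in those labelled *Sirt6* KO. It stayed at a low level in both groups but the values were far apart (log2 fold change 1.89 ± 0.33, adjusted p = 0.0168). *Klhl6*, known from B-lymphocyte receptor signaling, was at 1.303, 0.976 and 0.611 CPM in the WT libraries and 1.42, 3.498 and 5.12 CPM in those labelled *Sirt6* KO. Its groups only just did not overlap (log2 fold change 1.80 ± 0.50, adjusted p = 0.0489), and it passed in 3 of 15 alternatives, fewer than any other of the 18. *Klhl29* was at 4.89, 3.69 and 4.64 CPM in the WT libraries and 7.895, 9.82 and 9.08 CPM in those labelled *Sirt6* KO without overlap (log2 fold change 1.02 ± 0.17, adjusted p = 0.0161). *Klhl8* was at 27.7, 18.9 and 41.6 CPM in the WT libraries and 66.8, 47.7 and 62.9 CPM in those labelled *Sirt6* KO. WT 3 came nearest to the other group (log2 fold change 1.01 ± 0.28, adjusted p = 0.049).

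Smaller increases were found for the rest of these kelch genes. *Klhl26* was at 12.5, 10.9 and 13.7 CPM in the WT libraries and 19.6, 18.6 and 23.4 CPM in those labelled *Sirt6* KO (log2 fold change 0.73 ± 0.14, adjusted p = 0.0202). *Klhl17*, an actin-binding kelch protein of neurons, was at 8.82, 6.72 and 8.900 CPM in the WT libraries and 13.3, 11.6 and 13.4 CPM in those labelled *Sirt6* KO (log2 fold change 0.65 ± 0.15, adjusted p = 0.0323). *Klhl25*, known for the degradation of ATP-citrate lyase, was at 4.59, 4.69 and 4.68 CPM in the WT libraries and 6.49, 7.79 and 7.06 CPM in those labelled *Sirt6* KO. Its WT libraries were almost equal (log2 fold change 0.61 ± 0.14, adjusted p = 0.0327). *Klhl18*, which acts on the mitotic kinase Aurora A, was at 11.2, 10.6 and 11.3 CPM in the WT libraries and 16.6, 16.6 and 14.98 CPM in those labelled *Sirt6* KO (log2 fold change 0.54 ± 0.11, adjusted p = 0.0213). None of these 4 genes had overlapping groups.

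Of the ASB adaptors, 4 rose. *Asb16* (NCBI gene 217217, chr11:102268751-102279454), a gene of the muscle list with the MEF2 motif shown above, was at 22.4, 27.9 and 31.9 CPM in the WT libraries and 54.7, 47.9 and 53.9 CPM in those labelled *Sirt6* KO. Every library labelled *Sirt6* KO was above every WT library (log2 fold change 0.93 ± 0.15, adjusted p = 0.0143). *Asb18*, with a MEF2 motif next to its start, was at 4.35, 2.397 and 3.25 CPM in the WT libraries and 5.42, 6.995 and 7.52 CPM in those labelled *Sirt6* KO without overlap (log2 fold change 0.99 ± 0.25, adjusted p = 0.0391). It holds stretches of 310 to 495 bases over 90% identical to transcripts of 8 other genes, so its count is uncertain. *Asb4* is also on the muscle list and is known from blood vessels of the embryo. It was at 12.9, 11.5 and 23.1 CPM in the WT libraries and 31.3, 39.4 and 29.2 CPM in those labelled *Sirt6* KO. WT 3 was the highest WT library (log2 fold change 1.07 ± 0.27, adjusted p = 0.0393). The summed TPM of 8 endothelial markers was 101 to 222 in WT and 139 to 152 in the other group, with none past the threshold by edgeR (2 at an unadjusted p under 0.05). *Asb6*, which binds the insulin receptor adaptor APS, was at 5.47, 5.197 and 6.68 CPM in the WT libraries and 12.2, 9.63 and 11.97 CPM in those labelled *Sirt6* KO without overlap (log2 fold change 0.96 ± 0.16, adjusted p = 0.0163).

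**Figure D3:**
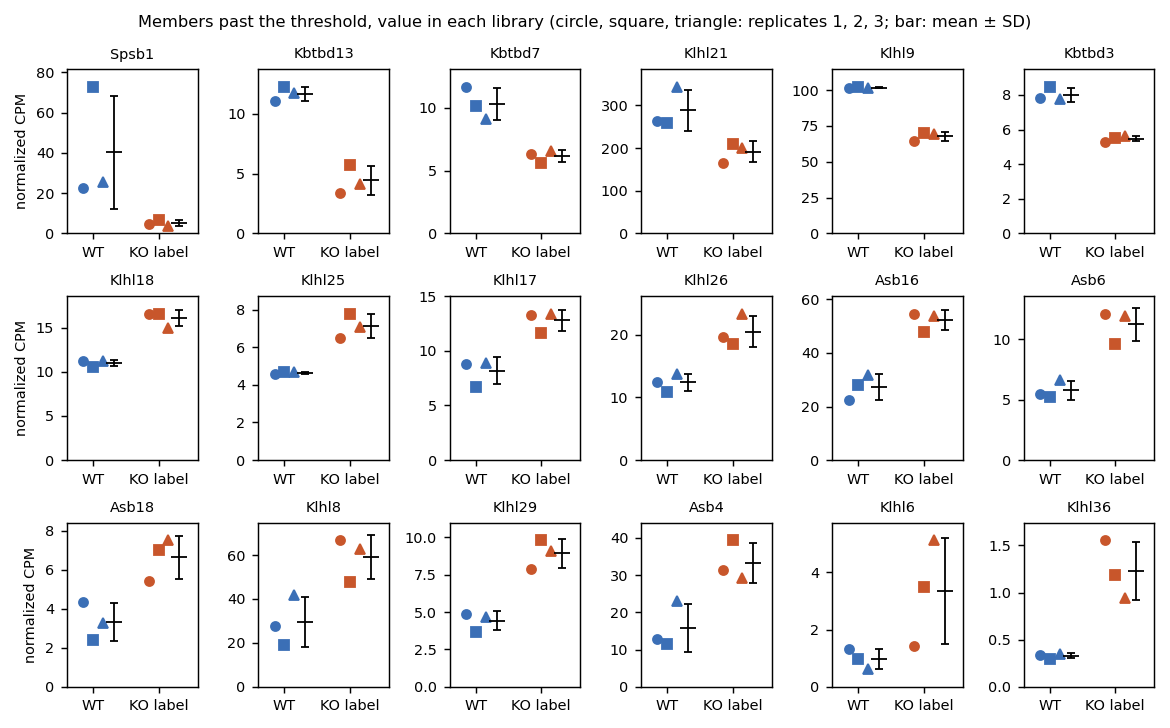
Normalized CPM of the 18 members with an adjusted p under 0.05, each on its own axis from 0. Blue marks are WT libraries and orange marks those labelled Sirt6 KO, circles, squares and triangles are replicates 1, 2 and 3, and bars are mean ± SD (n = 3). No gene has overlapping groups, and WT 2 stands out for Spsb1 at 72.7 CPM.

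The ASB genes at the top of the order did not pass. *Asb2*, which targets filamin A and desmin, was at 807, 754 and 1126 CPM in the WT libraries and 1251, 1043 and 1359.6 CPM in those labelled *Sirt6* KO. The groups overlapped (log2 fold change 0.44 ± 0.20, adjusted p = 0.157). *Asb5* was at 343, 332 and 538 CPM in the WT libraries and 153, 316 and 275 CPM in those labelled *Sirt6* KO. All WT values were higher, with a wide spread (log2 fold change -0.70 ± 0.30, adjusted p = 0.143). *Asb11* was at 209, 224 and 238 CPM in the WT libraries and 145, 192 and 176 CPM in those labelled *Sirt6* KO, also without overlap (log2 fold change -0.39 ± 0.14, adjusted p = 0.0935), and DESeq2 called it lower (adjusted p = 0.0368). *Asb10*, a glaucoma gene in people, was at 96.4, 101 and 138 CPM in the WT libraries and 161, 154 and 174 CPM in those labelled *Sirt6* KO. It came closest to the threshold among the muscle-list genes that did not pass, with no overlap (log2 fold change 0.55 ± 0.16, adjusted p = 0.0549), and DESeq2 called it higher (adjusted p = 0.0103). *Asb14* was at 112, 97.1 and 153 CPM in the WT libraries and 156, 137 and 127 CPM in those labelled *Sirt6* KO with overlap (log2 fold change 0.21 ± 0.18, adjusted p = 0.444). The remaining muscle ASB genes also overlapped. *Asb8* was at 71.9, 85.04 and 96.97 CPM in the WT libraries and 83.6, 95.8 and 90.4 CPM in those labelled *Sirt6* KO (log2 fold change 0.09 ± 0.13, adjusted p = 0.679). *Asb12* was at 26.8, 24.7 and 34.9 CPM in the WT libraries and 29.96, 33.9 and 32.05 CPM in those labelled *Sirt6* KO (log2 fold change 0.15 ± 0.15, adjusted p = 0.496). *Asb15* was at 77.8, 87.5 and 70.9 CPM in the WT libraries and 108, 82.3 and 102 CPM in those labelled *Sirt6* KO (log2 fold change 0.30 ± 0.14, adjusted p = 0.165). Of the genes for these substrates, chosen for their role after their values were seen, *Flna* had a log2 fold change of -0.43 ± 0.24 (adjusted p = 0.24) and *Des* of 0.31 ± 0.19 (adjusted p = 0.278).

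The 29 members outside the rule for named genes, *Spsb2* and *Kbtbd6* among them, had adjusted p from 0.0598 to 0.999 and log2 fold changes from -0.74 to 1.62, 12 of them positive and 17 negative. Among them were 21 *Klhl* and *Kbtbd* genes, 4 with an unadjusted p under 0.05, and 8 *Asb* and *Spsb* genes, 1 with such a p (*Spsb2*). Their groups did not overlap in 11 (37.9%, 3 higher and 8 lower). The 40.0% of all genes includes genes past the threshold, which these 29 leave out, so these shares cannot be compared. *Klhl12*, the member with the full CRE and an adaptor for the COPII coat protein SEC31, had a log2 fold change of -0.00 ± 0.10 (adjusted p = 0.999). Under 10 counts in some library were found in 5 members, none of which passed (1 at an unadjusted p under 0.05).

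The machinery that adaptors plug into was measured as a list of 41 core genes of cullin ligases (cullins, RING subunits, elongins, and genes of NEDD8 conjugation and removal). Of these, 4 rose and 5 fell (22.0%, against 16.2% of all genes), and the median log2 fold change was 0.02. The scaffold of kelch adaptors, *Cul3*, was at 348, 342 and 509 CPM in the WT libraries and 309.7, 294 and 304 CPM in those labelled *Sirt6* KO. All WT values were higher, but it did not pass (log2 fold change -0.40 ± 0.18, adjusted p = 0.151). *Cul5*, the scaffold of ASB and SPSB adaptors, also had all WT values higher and did not pass (log2 fold change -0.26 ± 0.13, adjusted p = 0.208). The RING proteins *Rbx1* (0.03 ± 0.12) and *Rnf7* (0.08 ± 0.12) had log2 fold changes near 0 and overlapping groups. Elongin C (*Tceb1*, -0.26 ± 0.13) overlapped, while elongin B (*Tceb2*, 0.61 ± 0.21, adjusted p = 0.0896) was higher without overlap and did not pass. These 6 scaffold and linker genes were chosen for their role after their values were seen. *Cand2*, the muscle form of the cullin exchange factor CAND, rose and was at 102, 105 and 136 CPM in the WT libraries and 217, 225 and 216 CPM in those labelled *Sirt6* KO (log2 fold change 0.94 ± 0.14, adjusted p = 0.0132). *Cul9* rose too (log2 fold change 0.79 ± 0.19, adjusted p = 0.0331). *Senp8*, the NEDD8 processing protease, fell (log2 fold change -0.99 ± 0.17, adjusted p = 0.0168). The E2 enzymes *Ube2d3* (log2 fold change -0.68 ± 0.13, adjusted p = 0.0192) and *Ube2f*, which loads NEDD8 on Cul5 (log2 fold change -0.54 ± 0.11, adjusted p = 0.0214), fell, as did the NEDD8 ligase gene *Dcun1d5* (log2 fold change -0.50 ± 0.10, adjusted p = 0.02).

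Other BTB and kelch adaptor genes passed the threshold upward in 5 of 25 cases (20%, against 7.85% of all genes) and downward, as 8.39% of all genes did, in 0 (5 lower at an unadjusted p under 0.05, and 2 lower by DESeq2). They were *Btbd9* (0.70 ± 0.13), *Kctd13* (1.22 ± 0.24), *Armc5* (1.07 ± 0.23), *Btbd2* (0.62 ± 0.13) and *Lztr1* (0.41 ± 0.11), all as log2 fold changes. The median log2 fold change over the 25 genes was -0.02. With the GC trend removed, edgeR passed 0 of the 25 (5 higher and 3 lower at an unadjusted p under 0.05). Without WT 1, 2 or 3 it passed 0, 0 and 6 upward, and without the libraries labelled *Sirt6* KO 1, 2 or 3, 0, 2 and 0. Of 21 other SOCS-box genes, *Neurl2* (0.89 ± 0.16), expressed in muscle, and *Rab40c* (0.89 ± 0.17) rose (9.52% past the threshold, against 16.2% of all genes) and 0 fell (3 lower at an unadjusted p under 0.05, and 3 lower by DESeq2). With the GC trend removed, edgeR passed 0 of these 21 (5 higher and 4 lower at an unadjusted p under 0.05). Of 19 genes for known substrates, 1 rose and 2 fell (15.8%, close to the 16.2% of all genes). *Dvl1*, encoding a Dishevelled protein that *Klhl12* targets, was at 130.3, 129.8 and 148 CPM in the WT libraries and 223, 208 and 217 CPM in those labelled *Sirt6* KO without overlap (log2 fold change 0.67 ± 0.11, adjusted p = 0.0156). *Nfe2l2*, encoding the substrate of the kelch adaptor KEAP1, was at 108, 99.04 and 63.97 CPM in the WT libraries and 39.4, 38.2 and 40.5 CPM in those labelled *Sirt6* KO, and every WT value was higher (log2 fold change -1.20 ± 0.19, adjusted p = 0.0148). *Flnc*, the filamin of *Klhl31*, was at 950.2, 1188 and 819 CPM in the WT libraries and 565, 690.3 and 551 CPM in those labelled *Sirt6* KO, also without overlap (log2 fold change -0.71 ± 0.18, adjusted p = 0.0403).

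Markers of other cells moved in part with the groups. Of 6 satellite cell markers, *Myf5*, *Cdh15* and *Pax7* rose, the other 3 had negative log2 fold changes down to -0.76 and did not pass, and the TPM of all 6 summed to 19.5 to 21.3 for WT and 26.1 to 37.1 for the KO-labelled libraries. Erythroid (122 to 1020 against 240.0 to 506 TPM), adipocyte (8.60 to 120 against 29.8 to 245 TPM), macrophage (51.3 to 121 against 58.8 to 66.5 TPM) and fibroblast (398 to 914 against 444 to 470 TPM) markers overlapped between the groups in their sums. Their part in the adaptor values was not tested.

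The number of members past the threshold depended on single libraries and on base composition. Without WT 1, WT 2 or WT 3 it was 5, 1 and 24 in place of 18, and without the libraries labelled *Sirt6* KO 1, 2 or 3 it was 0, 8 and 0. At an unadjusted p under 0.05, these fits gave 25, 24, 30, 22, 30 and 20 members. DESeq2 and limma were not run with a library left out. Core genes moved too, with 1, 0, 18, 0, 2 and 0 past the threshold in the same order of fits. Shares of all genes in these fits are not given here, so a loss of calls particular to the adaptors is not shown. Without WT 3, the WT library with few slow fiber markers, 17 of the 18 kept their call. Without the library labelled *Sirt6* KO 2, these were *Asb6*, *Asb16*, *Kbtbd13*, *Klhl9*, *Klhl26*, *Klhl29*, *Klhl36* and *Spsb1*. Over all genes, fold changes were higher at higher GC content (Spearman rho 0.33, with genes as points that are not independent of each other). The median GC content was 54.3% for 11 of the members that rose, 48.8% for the 6 that fell, 46.7% for those not past the threshold and 49.8% for all genes. With this trend removed, 8 of 62 members passed (6.94% of all genes did), of which 5 rose (*Asb4*, *Asb6*, *Asb16*, *Klhl29* and *Klhl36*, against 3.41% of all genes) and 3 fell (*Kbtbd13*, *Klhl21* and *Spsb1*, against 3.52%). *Spsb1* passed in 13 of 15 alternatives, *Kbtbd13* in 12, and *Asb16* and *Klhl29* in 11 each.

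**Figure D4:**
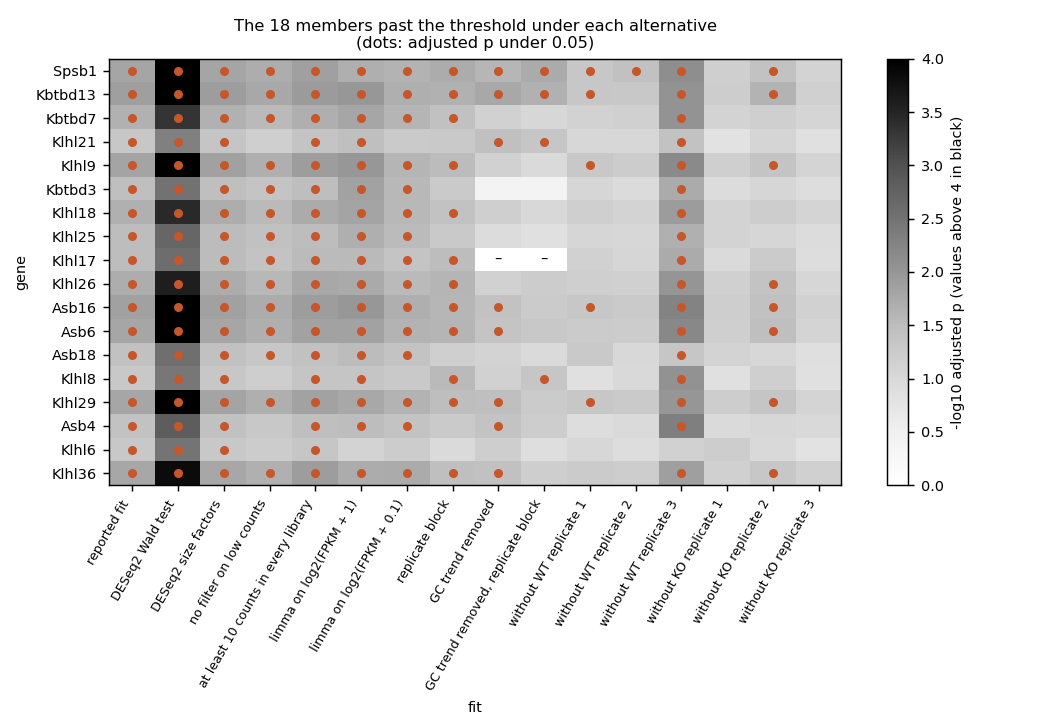
Shade gives -log10 of the adjusted p (values above 4 in black) of the 18 members past the threshold, by fit on the x axis, and dots mark an adjusted p under 0.05. A dash marks Klhl17, which has no GC value. The columns without the libraries labelled Sirt6 KO 1 and 3 hold no dot, and that without WT 2 holds 1, for Spsb1.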

How the data were processed

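Poly(A) RNA of 6 GAS samples, 3 WT and 3 labelled *Sirt6* KO, was sequenced. The authors deposited a gene table aligned to mm10 with read counts, FPKM and TPM for each library. The submitters' processing notes name bcl2fastq 2.20.0, FastQC 0.11.7, HISAT2 2.1.0, Bowtie2 2.3.4.1 and StringTie 2.1.3b, whereas the reporting summary of the study names another aligner. The methods of the study name StringTie for the read counts, and the strand setting is not given in the sources used here. The deposited counts summed to 44845763 to 63016899 per library. FPKM as deposited by the authors was used in alternatives only, and TPM as deposited by the authors for levels between genes. Columns for 6 libraries were used, and 7342 genes had no count.

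Groups came from the labels, which give replicate numbers but no pairing. The study states that biological replicates were used in general, but the labels do not tie each library to an animal, so p-values measure the spread between these samples. Counts were filtered with filterByExpr (13801 genes), scaled by TMM and fitted with group alone in edgeR 4.0.16 (R 4.3.3, glmQLFit and glmQLFTest). The common biological coefficient of variation was 24.1%. Genes were called at a Benjamini-Hochberg adjusted p under 0.05. The alternatives were DESeq2 1.42.0 (Wald test, and its size factors in edgeR), no filter, at least 10 counts in every library, limma 3.58.1 on log2(FPKM + 1) and log2(FPKM + 0.1), a replicate block, removal of the GC trend (lowess span 0.3; GC content known for 13711 genes and 62 members), both together, and each library left out. The fits were tested on simulated data. Similar transcripts were searched with blastn 2.17.0 (at least 90% over 300 bases).

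The members, gene lists and tests were chosen with earlier results of these data known. Named with values were members past the threshold without overlap, the 8 with the highest mean TPM and the muscle-list members (34 in all), in other lists up to 6 genes past the threshold, and genes said to be chosen otherwise. Protein sequences were not used here, and 1 substrate gene and 1 marker list are not reported here.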

Additional observations from a re-analysis of the deposited data

How the results depend on the processing

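With GC trend removed, 5 members were higher and 3 lower in place of 12 and 6, and 4 core genes passed in place of 9. With GC trend and replicate block together, 1 member was higher and 3 lower, and 0 core genes passed by edgeR (10 at an unadjusted p under 0.05). Leaving out 1 library gave 0 to 15 higher members, 0 to 9 lower members and 0 to 18 core genes. The counts under DESeq2, its size factors, no filter, 10 counts in every library and both limma settings stayed within 1.5 times. The sign turned for *Asb8* without WT replicate 1 (-0.0069, up to 0.20 without another library), *Kbtbd12* without *Sirt6* KO replicate 3 (-0.0831, up to 0.71), *Klhl31* without WT replicate 3 (0.23) and without *Sirt6* KO replicate 2 (0.0245, down to -0.24) and with GC trend removed (0.0645, with block 0.11), and *Klhl41* with GC trend removed (0.0782, with block 0.0765). The cause was not tested. Of 508 values of 34 named members, 377 kept direction and side of the threshold, 113 no longer passed, 10 passed anew and 8 changed sign, none of them among the 18 members past the threshold.

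Libraries with the same replicate number deviated with correlations of -0.10, 0.24 and 0.15. WT 1 correlated better with *Sirt6* KO 2 (0.20) and WT 3 with *Sirt6* KO 1 (0.20) than with the library of the same number. The 0.24 of WT 2 with *Sirt6* KO 2 was the highest of all pairs. Deviations from the mean of 3 libraries are tied to each other, so these values cannot show whether the numbers pair the samples. With the replicate block, 9 members were higher and 4 lower, 12 of the 13 shared with the 18, and 8 core genes passed. Shares of all genes in the alternatives, other than that with the GC trend removed, are not given here. Depth limits the lowest members: 5 had under 10 counts in some library. With 3 libraries a group, a difference that did not pass is not shown to be absent.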
